A study of Mus musculus with 6 samples.

Results

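Natural killer (NK) cells and cytotoxic T cells kill target cells with the contents of secretory granules, and the 10 genes described here encode parts of that machinery and receptors of the cells that carry it. They are the granule toxins Gzma, Gzmb and Prf1, the granule-associated genes Nkg7 and Ctsw, the receptor genes Klrd1, Klra4, Klra8 and Il2rb, and the chemokine gene Xcl1. The genes were taken by name, through a table that pairs Ensembl identifiers with mouse symbols, and all 10 were found among the 54532 genes of the deposited files. They were measured by RNA sequencing of the cervical spinal cord of 6 C57BL/6 mice, 1 library per mouse. The 3 imiquimod mice carried a dermatitis that models psoriasis, brought on by 50 mg of cream holding 5% imiquimod, an agonist of the RNA sensor Tlr7, applied daily to the shaved nape on 2 days. The 3 vehicle mice received an equal weight of vehicle cream. The labels give no transgene, no age and no sex, and both groups are of the same strain. The comparison asks which transcripts differ in the cord segments that serve the treated skin.

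Perforin, the product of Prf1, opens pores in the membrane of a target cell, and granzymes, which are serine proteases, enter through them and start cell death. NK cells carry no rearranged antigen receptor, and read instead a balance of activating and inhibitory receptors, among them the Ly49 family encoded by the Klra genes and the CD94 heterodimers that contain the Klrd1 product, most of which bind MHC class I molecules. The healthy central nervous system holds few such cells, and they are found mainly in the meninges and vessels. In whole cord, fewer cells of a type and less RNA per cell cannot be told apart.

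Expression is given as FPKM, a fragment count divided by exon length and by library depth, together with the fragments recovered from it. Between 21242407 and 23200991 fragments per library were recovered from the imiquimod cords, against 18174411 to 20672881 from the vehicle cords, so every imiquimod library was deeper. Imiquimod mouse 3 stood apart at 1 housekeeping gene, Gapdh, with 26.4 FPKM, against 1.56 to 2.15 FPKM in the other 5 libraries. Results that rest on that library are given without it as well.

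The promoters of 7 of the 10 genes were held in a RefSeq table of the GRCm38.p6 build, and 5 of them are printed here because they belong to the toxin genes with the largest differences and to a pair of related Klra genes. Each line is the 250 bases before the RefSeq start, 5′ to 3′ on the gene's strand, and capitals mark matches to the motifs described later. The windows are chr13:113100982-113101231 for Gzma, chr14:56262335-56262584 for Gzmb, chr10:61297586-61297835 for Prf1, chr6:130067272-130067521 for Klra4 and chr6:130129899-130130148 for Klra8, on the minus strand except for Prf1. The Gzmb window ends 74 bases before the GENCODE start of that gene.
Gzma: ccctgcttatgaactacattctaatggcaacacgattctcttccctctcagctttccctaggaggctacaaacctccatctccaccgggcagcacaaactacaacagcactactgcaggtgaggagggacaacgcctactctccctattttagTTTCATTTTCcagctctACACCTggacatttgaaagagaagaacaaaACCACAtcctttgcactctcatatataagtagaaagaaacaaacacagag
Gzmb: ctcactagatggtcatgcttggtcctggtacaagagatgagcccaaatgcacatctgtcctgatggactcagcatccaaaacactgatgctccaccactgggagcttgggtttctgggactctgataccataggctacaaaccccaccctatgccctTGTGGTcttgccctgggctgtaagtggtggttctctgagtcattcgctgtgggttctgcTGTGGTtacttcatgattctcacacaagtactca
Prf1: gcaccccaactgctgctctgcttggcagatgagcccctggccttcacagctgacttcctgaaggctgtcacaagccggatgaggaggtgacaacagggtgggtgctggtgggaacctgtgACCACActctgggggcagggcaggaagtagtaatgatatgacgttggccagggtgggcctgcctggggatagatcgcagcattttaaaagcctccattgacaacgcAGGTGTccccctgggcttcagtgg
Klra4: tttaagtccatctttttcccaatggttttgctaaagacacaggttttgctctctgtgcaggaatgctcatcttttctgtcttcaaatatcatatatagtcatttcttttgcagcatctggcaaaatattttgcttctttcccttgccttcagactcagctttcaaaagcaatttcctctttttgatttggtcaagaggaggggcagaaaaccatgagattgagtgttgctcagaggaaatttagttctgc
Klra8: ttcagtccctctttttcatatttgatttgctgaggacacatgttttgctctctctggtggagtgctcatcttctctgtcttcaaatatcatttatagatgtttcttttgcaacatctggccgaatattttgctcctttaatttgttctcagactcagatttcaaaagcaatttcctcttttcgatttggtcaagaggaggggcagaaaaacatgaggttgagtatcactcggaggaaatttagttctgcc

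All 10 genes were higher in the imiquimod cords. In a limma fit over 16513 genes, each with a mean of at least 0.5 FPKM in either group, 10 of the 10 had a Benjamini-Hochberg adjusted p under 0.05 and a higher value, while 8.74% of all genes tested were called higher and 5.34% lower. The count of 10 was 6 without imiquimod mouse 1, 10 without imiquimod mouse 2, 5 without imiquimod mouse 3 and 8 without each vehicle mouse in turn. For each of the 10, every imiquimod mouse lay above every vehicle mouse, which 19.8% of all genes tested did. Only Gzma and Nkg7 reached the minimum through their vehicle mean as well. The other 8 entered through their imiquimod mean alone, so they had to differ, and of the 685 genes tested that entered with a vehicle mean under 0.5 FPKM, 29.5% were called higher. The depth was very uneven: over the 3 libraries of a group a gene held 28 to 1292 fragments in the imiquimod cords and 0 to 54 in the vehicle cords. In the vehicle cords 5 of the 10 genes were at 0 in at least 1 library, and 3 had at most 3 fragments in all.

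**Figure D1:**
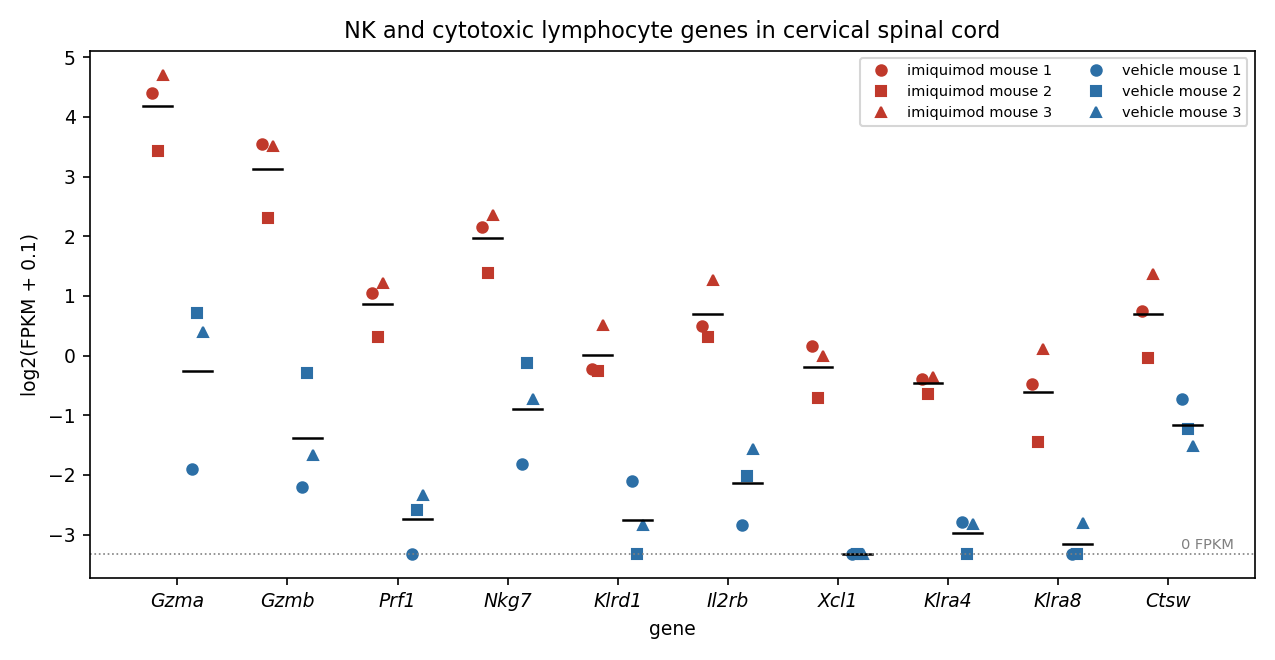
Level of each of the 10 genes, as log2(FPKM + 0.1), in every library, with the 3 imiquimod mice in red left of the 3 vehicle mice in blue; horizontal bars are group means and the dotted line marks 0 FPKM. Every imiquimod mouse lies above every vehicle mouse for each gene, imiquimod mouse 2 is the lowest of its group throughout, and Xcl1 is at 0 in all 3 vehicle mice.

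Among the granule toxins, Gzma, which encodes the tryptase granzyme A (ENSMUSG00000023132, chromosome 13, 113093825 to 113100981, minus strand, GRCm38), had 21.1, 10.7 and 26.0 FPKM in imiquimod mice 1, 2 and 3, against 0.169, 1.54 and 1.22 FPKM in vehicle mice 1, 2 and 3. It was the most abundant of the 10 per length, and the lowest imiquimod library still lay far above the highest vehicle library. These levels rest on 437, 241 and 614 fragments in the imiquimod mice and on 3, 27 and 24 in the vehicle mice, a ratio of summed fragments at equal depth of 19.7 (exact 95% interval for counting error, 15.0 to 26.3). The log2 change of FPKM + 0.1 was 4.44 ± 0.69 (SE, n = 3 each, adjusted p = 0.0094), and it passed whichever library was left out. Gzmb encodes granzyme B, which cleaves after aspartate and activates caspases (ENSMUSG00000015437, chromosome 14, 56258838 to 56262260, minus strand). It had 11.6, 4.86 and 11.3 FPKM in the imiquimod mice, against 0.118, 0.721 and 0.214 FPKM in the vehicle mice. Imiquimod mice 1 and 3 were nearly level, and mouse 2 had less than 50% of either. The fragments summed to 881 in the imiquimod group and to 27 in the vehicle group, a ratio of 26.8 (18.3 to 41.0), and the log2 change was 4.51 ± 0.54 (adjusted p = 0.00384).

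Prf1, the pore-forming partner of the granzymes (ENSMUSG00000037202, chromosome 10, 61297833 to 61304680, plus strand), was an order of magnitude less abundant than Gzma per length. It had 1.97, 1.14 and 2.23 FPKM in the imiquimod mice, against 0, 0.0668 and 0.0989 FPKM in the vehicle mice. The vehicle values stand for 0, 3 and 5 fragments, so vehicle mice differed from each other by no more than a few reads, while the imiquimod mice held 105, 66 and 135. Its ratio of summed fragments was 31.5 with a wide interval, 15.8 to 73.5, and its log2 change was 3.61 ± 0.40 (adjusted p = 0.0032), the smallest p of the 10. Gzmb and Prf1, like Gzma, kept an adjusted p under 0.05 without any 1 library.

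The granule-associated genes had smaller changes. Nkg7, a granule membrane protein needed for efficient degranulation (ENSMUSG00000004612, chromosome 7, 43437073 to 43438249, plus strand), had 4.35, 2.50 and 5.04 FPKM in the imiquimod mice, against 0.185, 0.818 and 0.503 FPKM in the vehicle mice. The groups were well separated, and the vehicle mice spread over a wider ratio than the imiquimod mice. The log2 change was 2.85 ± 0.45 (adjusted p = 0.00986), on 241 imiquimod and 25 vehicle fragments. Ctsw encodes cathepsin W, a cysteine protease made mainly by NK cells and cytotoxic T cells (ENSMUSG00000024910, chromosome 19, 5465043 to 5468507, minus strand). It had 1.57, 0.871 and 2.49 FPKM in the imiquimod mice, against 0.505, 0.327 and 0.249 FPKM in the vehicle mice. Its log2 change of 1.85 ± 0.39 was the smallest of the 10 (adjusted p = 0.0263), and its call was lost without imiquimod mouse 1 (adjusted p = 0.0761), imiquimod mouse 3 (0.0705), vehicle mouse 1 (0.0529), vehicle mouse 2 (0.0813) or vehicle mouse 3 (0.0867). With no filter on low values its adjusted p was 0.0535, and the other 9 genes still passed, where 3.4% of 31740 genes were called higher. Its fragments, 136 in the imiquimod group and 24 in the vehicle group, came out whole for an exon length of 1232 bases and not for the 1887 bases of GENCODE M21, and 9 exon bases overlap Fibp on the opposite strand.

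Xcl1, the chemokine lymphotactin, which attracts Xcr1-bearing dendritic cells (ENSMUSG00000026573, chromosome 1, 164931644 to 164935527, minus strand), was the rarest of the 10 by fragments. It had 1.02, 0.513 and 0.896 FPKM in the imiquimod mice, from 11, 6 and 11 fragments, and was at 0 in all 3 vehicle mice. Against a floor of 3 fragments over the vehicle group, it was at least 7.68-fold higher, and the exact 95% interval of the ratio, which also covers the counting error of the imiquimod fragments, begins at 5.84. The adjusted p was 0.00952, but 0.0577 without imiquimod mouse 1 and 0.0595 without imiquimod mouse 3. Of its 523 exon bases 98 overlap the gene Gm20743 on the opposite strand, and the strand setting of the counting is not given in the sources used here.

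Among the receptor genes Il2rb had the most fragments. It encodes the beta chain shared by the receptors for IL-2 and IL-15, cytokines on which NK cells depend (ENSMUSG00000068227, chromosome 15, 78479256 to 78495271, minus strand). It had 1.31, 1.14 and 2.32 FPKM in the imiquimod mice, against 0.0395, 0.148 and 0.239 FPKM in the vehicle mice. Imiquimod mice 1 and 2 were close together and mouse 3 stood above them. Its fragments summed to 458 in the imiquimod group and to 34 in the vehicle group, a ratio of 11.1 (7.81 to 16.2), with a log2 change of 2.83 ± 0.43 (adjusted p = 0.00827) that passed without any 1 library. Klrd1 encodes CD94, the common partner of the NKG2 receptors (ENSMUSG00000030165, chromosome 6, 129591782 to 129598775, plus strand). It had 0.757, 0.733 and 1.33 FPKM in the imiquimod mice, against 0.132, 0 and 0.0399 FPKM in the vehicle mice. The vehicle values are 3, 0 and 1 fragments, and the imiquimod values 20, 21 and 40. Its log2 change was 2.77 ± 0.48 (adjusted p = 0.0132), and the adjusted p was 0.0669 without imiquimod mouse 3.

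Klra4 and Klra8 encode Ly49D and Ly49H, activating Ly49 receptors of NK cells in C57BL/6 mice, and lie in the same gene cluster on chromosome 6 (ENSMUSG00000079852, 130043731 to 130067271, and ENSMUSG00000089727, 130115226 to 130129898, both on the minus strand). Klra4 had 0.662, 0.539 and 0.685 FPKM in the imiquimod mice, against 0.0454, 0 and 0.0411 FPKM in the vehicle mice. It was the most even of the 10 genes within the imiquimod group. The vehicle mice held 2 Klra4 fragments in all and the imiquimod mice 52, a ratio of 21.4 whose interval ran from 5.63 to 181. Klra8 had 0.618, 0.266 and 0.977 FPKM in the imiquimod mice, against 0, 0 and 0.0434 FPKM in the vehicle mice, or 49 fragments against 1 (ratio 40.3, interval 6.90 to 1624). In contrast to Klra4, it was the most uneven of the 10 within the imiquimod group, with mouse 2 at 0.333 times the mean of mice 1 and 3, where Klra4 was at 0.800 times.

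Both Klra calls were fragile. Klra4 changed by 2.51 ± 0.46 on the log2 scale (adjusted p = 0.0162), with an adjusted p of 0.0675 without imiquimod mouse 1 and 0.0779 without imiquimod mouse 3. Klra8 changed by 2.54 ± 0.61 (adjusted p = 0.0375), with 0.118 without imiquimod mouse 1, 0.099 without vehicle mouse 1, 0.0893 without vehicle mouse 2 and 0.0734 without vehicle mouse 3. Without imiquimod mouse 3, Klra8 fell under the 0.5 FPKM minimum and was not tested, and with log2(FPKM + 0.01) its adjusted p was 0.054. Reads can be shared within this family: of the 50-base words in the annotated transcripts, 4.68% of those of Klra4 and 33.1% of those of Klra8 also occur in transcripts of other genes, mostly Klra1 for Klra4 and the pseudogene Klra14-ps for Klra8. How reads with several matches were counted is not given in the sources used here, so both values are uncertain, while the other 8 genes shared no such word. The printed Klra4 and Klra8 promoters are alike as well, with 212 identical bases in 251 aligned columns (84.5%). The window of a second RefSeq start of Klra8, which begins at 130129836, had 163 identical bases in 314 aligned columns (51.9%).

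**Figure D2:**
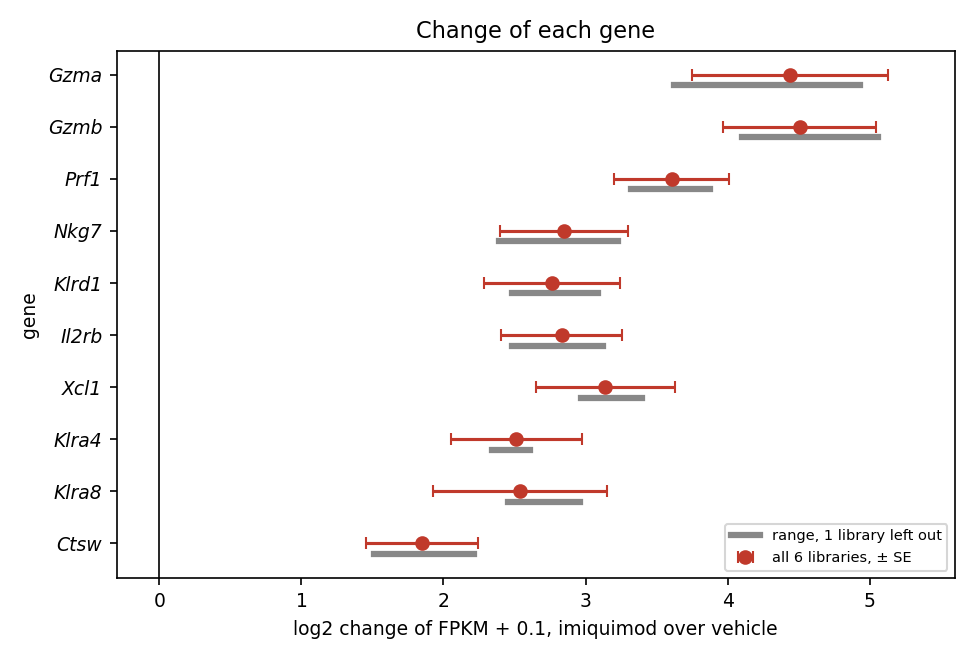
Log2 change of FPKM + 0.1, imiquimod over vehicle, for each of the 10 genes (red points, with SE bars, all 6 libraries) and its range when each library in turn was left out (grey bars). The changes run from 1.85 for Ctsw to 4.51 for Gzmb. No grey bar could reach 0, since every imiquimod mouse lay above every vehicle mouse for each gene.

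The 10 genes varied together among the imiquimod mice. Their summed FPKM was 44.9, 23.3 and 53.3 in imiquimod mice 1, 2 and 3, against 1.19, 3.62 and 2.65 in vehicle mice 1, 2 and 3. Imiquimod mouse 2 was the lowest of its group for 10 of the 10 genes, and mouse 3 was the highest for 8 of them, with Gzmb and Xcl1 highest in mouse 1. The low place of mouse 2 was not particular to these genes. Pan-leukocyte genes, described below, summed to 140, 112 and 131 FPKM in imiquimod mice 1, 2 and 3, and ligands of NK receptors to 4123, 3379 and 3798 FPKM. Neutrophil markers, by contrast, summed to 33.4, 37.9 and 27.3 FPKM, highest in mouse 2. Of the summed FPKM of the 10 genes, Gzma gave 46.9%, 46.0% and 48.8% in imiquimod mice 1, 2 and 3, and Gzmb 25.8%, 20.9% and 21.3%. Rarer genes varied more, such as Klrd1 with 1.69%, 3.15% and 2.50% and Il2rb with 2.92%, 4.89% and 4.35%. In the vehicle cords the shares rest on few fragments. Gzma gave 14.1% of the sum in vehicle mouse 1, against 42.6% and 46.1% in vehicle mice 2 and 3, and Ctsw gave 42.3%, against 9.02% and 9.40%. Vehicle mouse 1, lowest of all libraries for Gzma, Gzmb, Prf1, Nkg7 and Il2rb, was the highest vehicle mouse for Ctsw, Klrd1 and Klra4. For Klra4, however, vehicle mice 1 and 3 held 1 fragment each, and for Klrd1 vehicle mice 1, 2 and 3 held 3, 0 and 1.

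A wider list of 37 NK cell receptors and adaptors went the same way. Of the 13 that could be tested 10 were higher and 0 lower, with a median log2 change of 2.48, against -0.01 over all genes tested, and 9 of the 13 entered through their imiquimod mean alone. Of the 37, 26 were higher in every imiquimod mouse than in every vehicle mouse and 1 was lower in every one, while with no filter 12.5% of 31740 genes were higher in every imiquimod mouse. The 3 with an adjusted p under 0.05 whichever library was left out were Cd244a, a receptor for Cd48, and the signalling adaptors Fcer1g and Tyrobp, which microglia and other myeloid cells also express. Cd244a averaged 0.862 ± 0.092 FPKM in imiquimod and 0.0701 ± 0.0308 FPKM in vehicle mice (SD, n = 3 each). Fcer1g averaged 80.2 ± 13.7 FPKM in imiquimod and 13.3 ± 3.22 FPKM in vehicle mice, and Tyrobp 69.5 ± 10.3 FPKM in imiquimod and 30.5 ± 3.94 FPKM in vehicle mice.

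Ncr1 and Klrb1c, receptors closely tied to NK cells, had few fragments. Ncr1, which encodes the activating receptor NKp46, had 0.598, 0.348 and 0.941 FPKM in the imiquimod mice, against 0, 0.0747 and 0 FPKM in the vehicle mice. That is 65 fragments against 2, a ratio of 26.7 with an interval of 7.11 to 225. Klrb1c, the NK1.1 antigen of C57BL/6 mice, had 0.901, 0.287 and 0.705 FPKM in the imiquimod mice, against 0, 0.0194 and 0.0518 FPKM in the vehicle mice. The groups did not overlap for either gene, and imiquimod mouse 2 was again the lowest of its group. Ncr1 changed by 2.51 ± 0.57 (adjusted p = 0.0317) and lost its call without imiquimod mouse 1 or without any 1 vehicle mouse (0.0548 to 0.097), and without imiquimod mouse 3 it fell under the minimum and was not tested. Klrb1c changed by 2.48 ± 0.57 (adjusted p = 0.0337) and lost it without imiquimod mouse 3 or any 1 vehicle mouse (0.0685 to 0.128), and without imiquimod mouse 1 it was not tested. Other settings also ended calls: log2(FPKM + 0.01) those of Ncr1 (0.054) and Tigit (0.0597), quantile normalization that of Klrb1c (0.0525), and no filter (0.0584) or voom (0.0776) that of Klra2. Klra7 and Klrb1b, inhibitory receptors, rose by 2.90 ± 0.52 and 2.62 ± 0.47. Klra7 lost its call without imiquimod mouse 1 (0.0672) or 3 (0.0721), and Klrb1b without imiquimod mouse 1 (0.0735). Klra2 (adjusted p = 0.029), Slamf7 (0.0317) and Tigit (0.0291) also passed, but each lost its call without any 1 library other than imiquimod mouse 2, with an adjusted p of 0.0726 to 0.0998, 0.0622 to 0.133 and 0.0545 to 0.118 in that order. Counted over the list, 10 calls became 3, 12 and 4 without imiquimod mouse 1, 2 and 3, and 5 without each vehicle mouse in turn. Fcgr3 (0.45, adjusted p = 0.0658), Hcst (1.51, adjusted p = 0.0618) and Klri1 (-1.06, adjusted p = 0.164) did not pass.

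Some genes of interest lay under the 0.5 FPKM minimum and had no test, and they are named here after their values were seen. Eomes, a T-box transcription factor of NK cells and cytotoxic T cells, had 35 fragments in the imiquimod group and 0 in the vehicle group. Tbx21, which encodes the related T-bet, had 64 against 5. Klrk1, the activating receptor NKG2D, had 129 against 10, and Klrc1, the inhibitory partner of CD94, 54 against 2. The ratios for Tbx21 and Klrk1, 10.5 and 10.6, had intervals of 4.28 to 33.5 and 5.59 to 22.6. Ifng, the interferon that activated NK cells secrete, had only 3 fragments in the imiquimod group and 1 in the vehicle group, so no difference could be seen at this depth. Fasl, a death ligand of cytotoxic cells, had 33 against 6, but imiquimod mouse 2 at 0.0462 FPKM lay below vehicle mouse 2 at 0.119 FPKM.

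**Figure D3:**
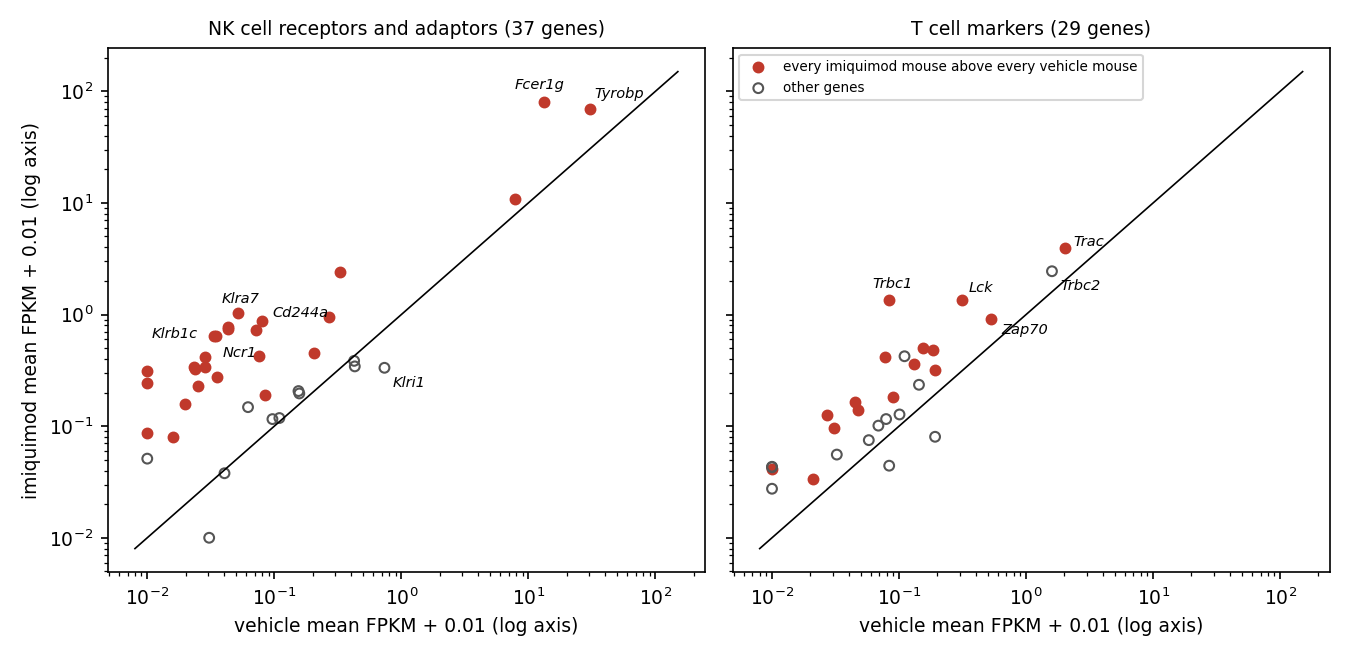
Imiquimod mean against vehicle mean, both as FPKM + 0.01 on log axes, for 37 NK cell receptors and adaptors (left) and 29 T cell markers (right); filled points are genes for which every imiquimod mouse exceeded every vehicle mouse, and the line marks equal levels. Of the NK list 26 genes are filled, and of the T cell list 16, against 12.5% of all genes with no filter.

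Genes listed with the lytic effectors, and granule genes, moved in part. Beside the counts of this and the later lists, 8.74% of all genes tested were called higher and 5.34% lower. Genes that entered through their imiquimod mean alone had to differ. Of the 685 genes tested with a vehicle mean under 0.5 FPKM, 29.5% were called higher. Of 19 further granzymes, lytic effectors and products released with them in the files, 9 could be tested, 6 were higher and 0 lower. The median log2 change was 1.99, and 2 of the 9 entered through their imiquimod mean alone. The 6 were Ccl5, Ccl3, Ccl4, Cst7, Srgn and Tnf, and no granzyme was among them. The 3 with the largest changes were chemokines released by cytotoxic cells and also by myeloid cells. Ccl5 averaged 81.5 ± 25.3 FPKM in imiquimod and 1.24 ± 0.663 FPKM in vehicle mice, a log2 change of 6.04 ± 0.46 (adjusted p = 0.00106). Ccl3 rose by 3.48 ± 0.52 and Ccl4 by 2.86 ± 0.45, though under voom on the recovered fragments the adjusted p of Ccl3 was 0.0524. Cst7, a cystatin that restrains granule cathepsins and is also made by microglia, averaged 3.99 ± 1.13 FPKM in imiquimod and 0.558 ± 0.0628 FPKM in vehicle mice. Srgn, the granule proteoglycan serglycin, rose by 1.74 ± 0.30 and lost its call without vehicle mouse 1 (0.0519). Tnf rose by 1.99 ± 0.37 and lost it without imiquimod mouse 1 or 3 or vehicle mouse 1 (0.0515 to 0.067), so the list had 4 calls without vehicle mouse 1. The neighbours of Gzmb in its gene cluster named Gzmd, Gzme, Gzmf, Gzmg and Gzmn were at 0 in all 6 libraries.

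Of 11 genes of granule maturation and exocytosis 5 were higher and 0 lower (median 0.63), and 2 of the 11 entered through their imiquimod mean alone. Ctsc, the protease that activates progranzymes, averaged 10.7 ± 3.52 FPKM in imiquimod and 2.95 ± 0.462 FPKM in vehicle mice, a log2 change of 1.78 ± 0.26 (adjusted p = 0.00721) that passed without any 1 library. The other 4 were the lysosomal proteases Ctsh (1.30 ± 0.24) and Ctsl (0.63 ± 0.12), the fusion protein gene Stx11 and the vesicle SNARE gene Vamp8. Ctsh lost its call without imiquimod mouse 1 or vehicle mouse 1 or 2 (0.0586 to 0.0674), Ctsl without imiquimod mouse 3 or any 1 vehicle mouse (0.0637 to 0.0706), Stx11 without any 1 library (0.0571 to 0.118) and Vamp8 without any but imiquimod mouse 2 (0.0868 to 0.135) or with no filter (0.077). The list had 3, 5 and 2 calls without imiquimod mouse 1, 2 and 3 and 1, 1 and 2 without vehicle mouse 1, 2 and 3. Among 7 tested serpins and other granzyme inhibitors 2 were higher and 1 lower, and 1 of the 7 entered through its imiquimod mean alone. Serpinb9, the intracellular inhibitor of granzyme B, averaged 6.34 ± 0.757 FPKM in imiquimod and 3.63 ± 0.313 FPKM in vehicle mice (log2 change 0.78 ± 0.11, adjusted p = 0.00689). Serpina3n, a secreted inhibitor of granzyme B that reactive astrocytes also make, averaged 151 ± 42.1 FPKM in imiquimod and 25.9 ± 1.17 FPKM in vehicle mice. Serpinb1a, which inhibits neutrophil proteases, was lower, at 8.33 ± 1.95 FPKM in imiquimod and 19.7 ± 2.10 FPKM in vehicle mice.

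Of 7 tested transcription factors of cytotoxic lymphocytes 1 was higher and 1 lower (median 0.01). The higher one, Runx3, was also the 1 of the 7 that entered through its imiquimod mean alone. Runx3, a factor of cytotoxic T cells and NK cells, averaged 0.624 ± 0.361 FPKM in imiquimod and 0.0224 ± 0.0118 FPKM in vehicle mice, a log2 change of 2.44 ± 0.58 (adjusted p = 0.0355). Zeb2, which neural and glial cells also express, changed by -0.41 ± 0.09 (adjusted p = 0.0317). Runx3 lost its call without imiquimod mouse 1 or any 1 vehicle mouse (0.0829 to 0.106), and without imiquimod mouse 3 it fell under the minimum and was not tested. Its adjusted p was 0.0501 with log2(FPKM + 1) and 0.0535 after quantile normalization. Zeb2 lost its call without imiquimod mouse 1 or 3 or any 1 vehicle mouse (0.0619 to 0.125), with no filter (0.056) and with the exon length trend removed (0.112). In the IL-2 and IL-15 receptor list, with the cytokines that act on NK cells, 6 of 13 tested genes were higher and 0 lower. Of the 13, 3 entered through their imiquimod mean alone. Il2rg, the common chain that pairs with the Il2rb product, averaged 3.64 ± 0.694 FPKM in imiquimod and 0.641 ± 0.0967 FPKM in vehicle mice. Il18bp, a soluble decoy for IL-18, rose by 3.24 ± 0.16 (adjusted p = 0.000294). Il21r, the IL-21 receptor, rose by 1.90 ± 0.20. Jak3, the kinase bound to the common chain, and Il12b, a subunit of IL-12, lost their calls without any 1 library other than imiquimod mouse 2 (adjusted p of 0.0656 to 0.105 and of 0.0514 to 0.0897). Il12rb1 lost its call without imiquimod mouse 1 or 3 or vehicle mouse 1 or 3 (0.0661 to 0.0873). With no filter Jak3 (0.0763) and Il12rb1 (0.0531) did not pass. The list had 3 calls without imiquimod mouse 1 or 3 and without vehicle mouse 1 or 3, 4 without vehicle mouse 2, and 7 without imiquimod mouse 2.

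Chemokines that draw NK and T cells, and ligands that NK receptors read, also differed. Of 14 tested chemokines and receptors 7 were higher and 2 lower, and 4 of the 14 entered through their imiquimod mean alone. Cxcl9, a ligand of Cxcr3, averaged 20.4 ± 10.4 FPKM in imiquimod and 0.401 ± 0.167 FPKM in vehicle mice, a log2 change of 5.25 ± 0.45 (adjusted p = 0.00129). Cxcl10 rose by 4.18 ± 0.19 (adjusted p = 0.000243). S1pr1, which guides lymphocyte egress and is abundant in astrocytes and endothelium, changed by -0.42 ± 0.07 (adjusted p = 0.0107), with 0.057 without vehicle mouse 1. Cxcl12, made by vessel and meningeal cells and named after its value was seen, changed by -0.998 ± 0.21 (adjusted p = 0.0262) and lost its call without imiquimod mouse 1 or 2 or vehicle mouse 1 or 3 (0.0506 to 0.093). Of 13 tested ligands of NK receptors 8 were higher and 2 lower, and 1 of the 13 entered through its imiquimod mean alone. H2-T23, which encodes Qa-1, the ligand of CD94 with NKG2A, averaged 238 ± 46.1 FPKM in imiquimod and 15.8 ± 6.33 FPKM in vehicle mice. Cd48, the ligand of the Cd244a receptor, averaged 5.27 ± 1.15 FPKM in imiquimod and 0.813 ± 0.376 FPKM in vehicle mice. B2m, the light chain of MHC class I molecules, rose by 2.90 ± 0.17. The lower ligands, Cadm1 (-0.26, adjusted p = 0.0487) and Nectin3 (-0.47, adjusted p = 0.0492), were named after their values were seen. Cadm1 lost its call without any 1 library other than imiquimod mouse 2 (0.085 to 0.174), and Nectin3 without any 1 library (0.0581 to 0.158).

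Markers of other blood cells were examined beside these results, since whole cord holds blood and meninges. Among 29 T cell markers in the files 24 lay under 0.5 FPKM in both groups, and of the 5 tested, Trbc1 and Lck were higher. Of the 5, 2 entered through their imiquimod mean alone. With no filter 4 of the 29 were called higher and 0 lower, where 3.4% of 31740 genes were called higher. For 16 of the 29 every imiquimod mouse lay above every vehicle mouse, and for 1 below. With no filter 12.5% of all genes were higher in every imiquimod mouse. Trbc1, a T cell receptor constant gene, averaged 1.34 ± 0.643 FPKM in imiquimod and 0.0735 ± 0.00458 FPKM in vehicle mice. Lck rose by 1.79 ± 0.31 (adjusted p = 0.0129), with 0.0503 without imiquimod mouse 1 and 0.0503 without imiquimod mouse 3. Trac, the alpha constant gene, had 4.62, 4.45 and 2.78 FPKM in the imiquimod mice, against 2.30, 2.28 and 1.42 FPKM in the vehicle mice, and its log2 change of 0.94 ± 0.25 did not pass (adjusted p = 0.05). Trbc2 (0.64, adjusted p = 0.187) and Zap70 (0.70, adjusted p = 0.0736) did not pass either. The summed level of the list was 12.3 to 15.4 FPKM in imiquimod and 5.33 to 6.87 FPKM in vehicle mice. Its part in the higher cytotoxic genes, which T cells can also express, was not tested.

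The invariant T cell chains, named after their values were seen, had fewer fragments than the toxins in the imiquimod group. In the vehicle group Cd3e, with 13, had more than Prf1, with 8. Cd3e had 0.0475, 0.132 and 0.0940 FPKM in the imiquimod mice, against 0.0415, 0.0846 and 0.0501 FPKM in the vehicle mice, and the groups overlapped. With 25 fragments in the imiquimod and 13 in the vehicle group, its ratio was 1.58 (interval 0.779 to 3.37). Cd3d had a ratio of 2.88 (1.49 to 6.01), Cd3g of 4.66 (1.93 to 13.6) and Cd8a, the coreceptor of cytotoxic T cells, of 6.14 (3.42 to 11.9). Imiquimod mouse 2, lowest for all 10 cytotoxic genes, was the highest of its group for Cd3e and Cd3d. For the summed T cell list, however, it was the lowest, at 12.3 FPKM, against 15.4 and 14.1 FPKM in imiquimod mice 1 and 3.

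The summed monocyte markers took the same order of mice as the cytotoxic genes in both groups. That order was not particular to monocytes, since the summed mast cell and basophil markers took it too, with overlapping groups. These were 3.09, 2.85 and 3.76 FPKM in imiquimod mice 1, 2 and 3, and 2.60, 3.12 and 3.04 FPKM in vehicle mice 1, 2 and 3. Of 10 tested monocyte markers, Ly6c2, Ccr2, Ms4a4c and Plac8 (4) were higher and 0 lower (median 2.30). Of the 10, 2 entered through their imiquimod mean alone. The sum of the monocyte list was 35.2 to 106 FPKM in imiquimod and 15.7 to 27.8 FPKM in vehicle mice. Ly6c2, the Ly6C antigen of inflammatory monocytes, had 14.7, 5.65 and 20.1 FPKM in the imiquimod mice, against 0.289, 1.72 and 0.504 FPKM in the vehicle mice. Plac8 lost its call without imiquimod mouse 1 or 3 or vehicle mouse 1 or 3 (0.0679 to 0.0945), with no filter (0.0628) and under voom (0.0503). As for the cytotoxic genes, imiquimod mouse 3 was the highest and imiquimod mouse 2 the lowest of its group. Ccr2, a chemokine receptor of monocytes that some NK cells share, averaged 2.00 ± 1.17 FPKM in imiquimod and 0.132 ± 0.0282 FPKM in vehicle mice. Of 11 pan-leukocyte genes 9 were higher, with a sum of 112 to 140 FPKM in imiquimod and 34.2 to 41.7 FPKM in vehicle mice. Of these 11 genes, 4 entered through their imiquimod mean alone. The part of monocytes and of blood leukocytes in general in the result was not tested.

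For neutrophil and red blood cell genes the sums of the groups overlapped. Of 9 tested neutrophil markers 1 was higher (Csf3r) and 1 lower (Mmp9), and their sum was 27.3 to 37.9 FPKM in imiquimod and 25.1 to 88.3 FPKM in vehicle mice, with vehicle mouse 2 the highest. The vehicle mice took the same order for this sum, mouse 2 above 3 above 1, as for the cytotoxic genes, and the imiquimod mice another. Of 7 tested red blood cell genes 0 passed in either direction, and their sum was 70.1 to 174 FPKM in imiquimod and 146 to 511 FPKM in vehicle mice. Vehicle mouse 1, with the highest red blood cell sum of all libraries, had the lowest sum of the 10 cytotoxic genes. Among the imiquimod mice the reverse held for mouse 3, which was the highest for both sums. Its red blood cell sum was 174 FPKM, against 70.1 and 81.9 FPKM in imiquimod mice 1 and 2. Csf3r lost its call without imiquimod mouse 1 or 3 or vehicle mouse 2 (0.0519 to 0.0562), and Mmp9 without any 1 library other than imiquimod mouse 2 (0.0938 to 0.136), with no filter (0.0832) and under voom with sample quality weights (0.0806). Of 6 tested dendritic cell markers 2 were higher, Itgax (3.74, adjusted p = 0.00118) and the interferon-induced Bst2 (3.83, adjusted p = 0.00399). Itgax entered through its imiquimod mean alone, and the median log2 change of the 6 was 0.10. Of the 12 listed genes, 3 were higher and 5 lower in every imiquimod mouse than in every vehicle mouse. Of 4 tested B and plasma cell markers 1 was lower, Ighm (-0.44, adjusted p = 0.00727), and the 1 tested mast cell marker did not pass.

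The tissue's own cells were well represented. Of 12 tested microglia markers 4 were higher, Tmem119, Olfml3, Aif1 and Itgam, and 1 was lower, Fcrls. Of 14 genes of neurons, astrocytes and oligodendrocytes Aldh1l1 was higher and Rbfox3 and Chat were lower. The summed level of these 14 genes was 6449 ± 864 FPKM in imiquimod and 8272 ± 184 FPKM in vehicle mice (SD over 3 mice each). The groups did not overlap for this sum, with 5455 to 7019 FPKM in imiquimod and 8108 to 8471 FPKM in vehicle mice. The cause of the lower sum was not tested. Rbfox3 lost its call without any 1 vehicle mouse (0.0767 to 0.0909), and Chat without any 1 library other than imiquimod mouse 2 (0.0956 to 0.135) or with no filter (0.0794).

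**Figure D4:**
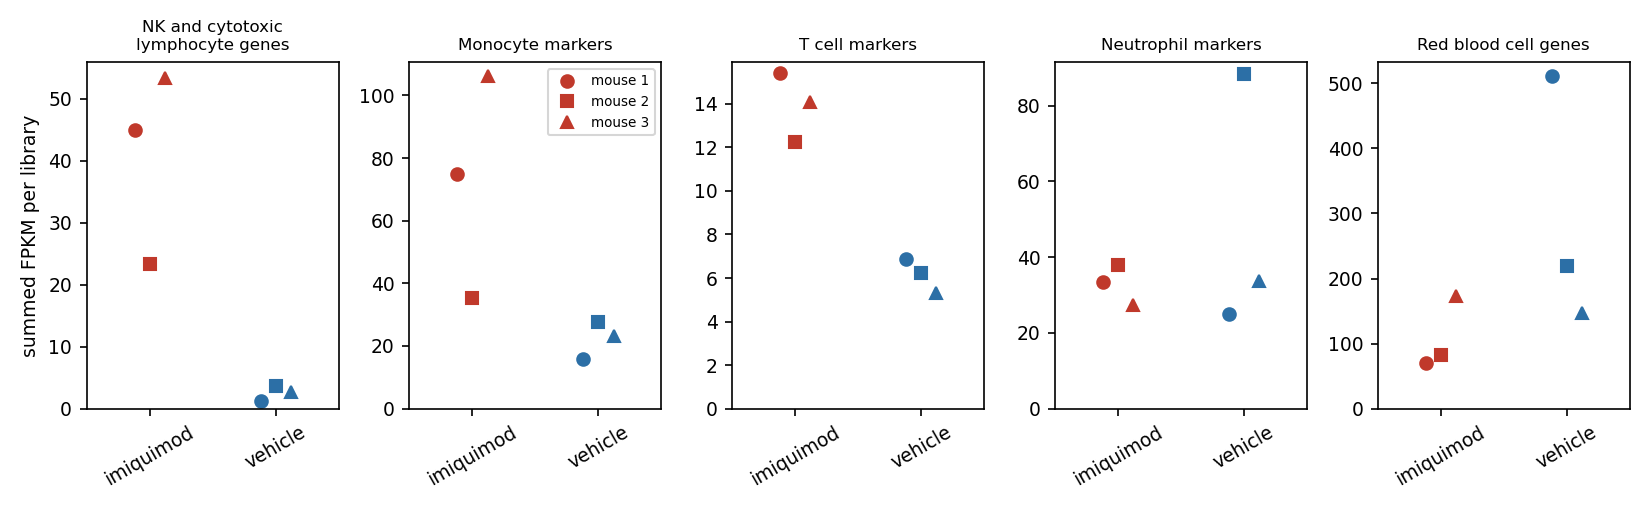
Summed FPKM per library of the 10 cytotoxic genes and of 4 marker lists, with the 3 imiquimod mice (red) left of the 3 vehicle mice (blue); each panel has its own axis from 0 and each symbol is 1 mouse. The cytotoxic sums are 44.9, 23.3 and 53.3 in the imiquimod mice, and the monocyte sums take the same order, while the neutrophil sums overlap between groups.

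The 250-base promoter windows were searched on both strands for 4 motifs: TGTGGT for Runx factors, AGGTGT for T-box factors, TTCNNNGAA for STAT dimers (GAS), and the ISRE core of interferon regulatory factors. Runx letters stood in 5 of the 7 windows found, those of Gzma, Gzmb, Nkg7, Prf1 and Xcl1, while 14.0% of all 32851 mouse windows in the table held them. In the printed sequences they begin 50 bases before the start of Gzma, 93 and 34 bases before that of Gzmb and 130 bases before that of Prf1. T-box letters stood in the windows of 3 of the 7 genes, those of Gzma, Nkg7 and Prf1, against 11.8% of all windows. The Nkg7 window runs to position 43437137, past the GENCODE start of that gene at 43437073. Its T-box match, 14 bases before the RefSeq start, therefore lies inside the annotated gene. GAS letters stood in Nkg7 alone of the 7 (7.02% of all windows), and ISRE letters in Gzma alone (2.98%). None of the 4 was found in the Klra4 window or in either Klra8 window, and no match overlapped a match to another motif. A match is a description of letters and says nothing of binding.

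**Figure D5:**
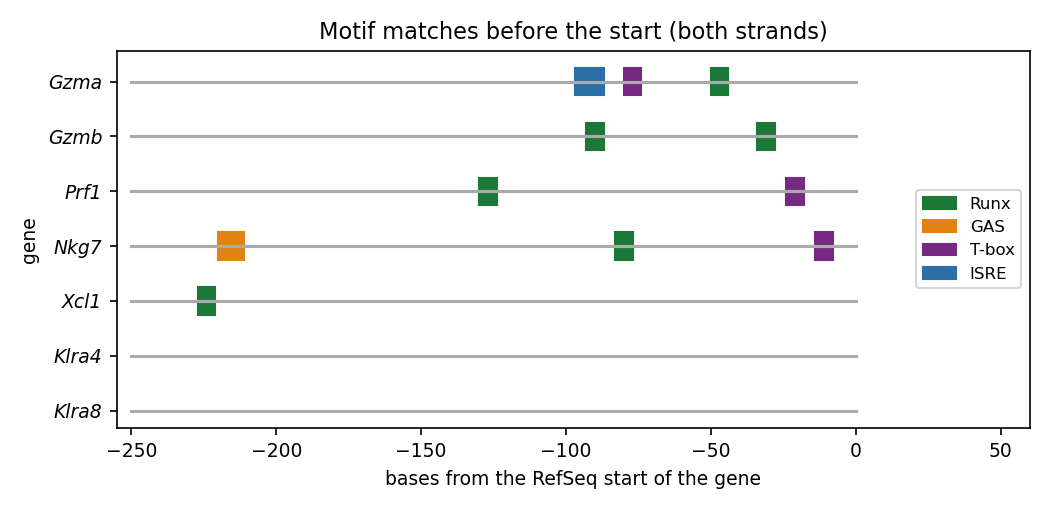
Matches to 4 motifs in the 250 bases before the RefSeq start of the 7 genes with a promoter in the table; the horizontal axis is the distance from the start in bases, grey lines are the windows and coloured boxes are matches on either strand. Runx boxes appear in 5 genes, T-box boxes in 3, and the Klra4 and Klra8 windows hold none.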

How the data were processed

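RNA sequencing libraries from 3 imiquimod and 3 vehicle mice were analysed. The authors deposited 1 FPKM value per Ensembl gene and library. The submitters' processing notes name HISAT2 2.0.5, featureCounts 1.5.0-p3, DESeq2 1.16.1 and mm10, without roles or order. Not given in the sources used here are the annotation release, the strand setting and how multi-mapped reads were counted, and each can move the values of overlapping genes and of the Klra family.

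Symbols came from a names table (54409 identifiers) and coordinates and exon lengths from GENCODE M21 (54495 identifiers), on GRCm38, the assembly that mm10 names. FPKM times exon length gave whole fragments for 97.4% to 97.6% of values under 1000 fragments per library, within 0.05 fragments. Ratios of summed fragments are scaled to equal recovered depth, with exact 95% intervals that cover counting error only.

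The main test was limma 3.58.1 (R 4.3.3) on log2(FPKM + 0.1), with a mean-variance trend, which understates the change of low genes. Genes with a mean of at least 0.5 FPKM in either group entered, and p was adjusted by Benjamini-Hochberg over all of them with a threshold of 0.05. Other steps used Biopython 1.88, SciPy 1.17.1, NumPy 2.4.6, pandas 2.3.3 and matplotlib 3.10.9 under Python 3.11.15. Promoters are RefSeq sequences of GRCm38.p6.

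The 10 genes and the 18 other lists (292 genes) were chosen with earlier results of these data known. Named from each list were up to 6 genes with the smallest p, and for the NK receptor and T cell lists every gene of at least 0.5 FPKM in either group. Each mouse is a separate animal. The labels state no pairing of replicate numbers between the groups, and deviations of same-numbered libraries showed little correlation. Alternatives were other pseudocounts, filters, scalings and weights, removal of an exon length trend, a replicate block, and leaving out each library.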

Additional observations from a re-analysis of the deposited data

How the results depend on the processing

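Over 18 alternatives no change of the 10 genes, or of the list genes named by the rule given above, turned its sign while called. For the 10 genes, leaving out 1 library could not turn the sign, since their groups did not overlap. The count of the 10 genes called was 5 to 10 when 1 library was left out, 6 under a minimum of 1 FPKM in either group and 6 under a minimum of 0.5 FPKM over all libraries, where only 6 of the genes were tested. It was 9 with no filter and with log2(FPKM + 0.01), and 10 under voom on the recovered fragments, with and without sample quality weights. The count over all genes, 2326, was 847 without vehicle mouse 1 to 2986 without imiquimod mouse 2, and that over the fixed lists, 78, was 51 to 90 over the same omissions; the cause was not tested. Quantile normalization called 1335 genes higher and 1287 lower, against 1444 and 882, and moved the median of all genes by -0.05. With the replicate number as a block, 1330 genes and 7 of the 10 were called, and Klra4 (adjusted p = 0.0623), Klra8 (0.0845) and Ctsw (0.0528) were not. Deviations of same-numbered libraries correlated at 0.02, -0.10 and -0.03, and no imiquimod library correlated best with the vehicle library of its own number. With 3 mice per group, these values cannot show whether same-numbered libraries share a weak effect. Depth limits the folds: in the vehicle cords 3 of the 10 genes rest on at most 3 fragments, so their fold has no firm upper bound.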
